A study of Mus musculus with 46 samples.

Results

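The genes described here are the 200 whose transcript usage differed most between mouse embryonic fibroblasts (MEF) and induced pluripotent stem cells (iPSC). Usage is the share of a gene's summed FPKM (fragments scaled by transcript length and by the mapped fragments of the library) that belongs to a given transcript. Of 35976 genes in the transcript table, 4516 had at least 2 transcripts and a summed mean of at least 5 FPKM both in the 2 MEF and in the 12 iPSC libraries. Usage was taken from the mean FPKM of each group, and the 200 genes with the largest usage change of any single transcript are the members. The members were thus chosen by the FPKM of the MEF and iPSC libraries themselves, so their differences are given as a description with no test. In each member, the transcript that lost the most usage from MEF to iPSC is called the falling transcript and the one that gained the most the rising transcript, as names only.

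All cells carried the Oct4-GFP reporter of OG2 mice. MEF were taken from E13.5 embryos that OG2 males had sired with 129 females, whereas the mES came from embryos of OG2 mice. Strain background thus differs between mES and MEF, and between mES and any iPSC made from such MEF. Per the methods, iPSC were made from OG2 MEF with pMXs retroviruses. The labels of the iPSC libraries do not name the cell of origin, and the paper also made iPSC from neonatal and tail tip fibroblasts. The viruses carried Oct4 together with either native Nanog (NanogWT, labelled Nanog+Oct4) or a Nanog that carries, at its N-terminus, the part of SS18 that binds BRG1 (NanogBiD, labelled NanogN70+Oct4), 6 libraries each. Both combinations had libraries labelled iPSC1 and iPSC2, called lines here, and nothing states whether these names mark lines, clones or batches. The iPSC and the single mouse embryonic stem cell library (mES) were kept without feeders in N2B27 medium with 2iL. MEF were grown in DMEM with serum, so medium as well as cell type differs between MEF and iPSC. The transcript table holds these 15 libraries, whereas 31 libraries of the time course (D0 to D12 after infection, 2 per combination and day except 1 for NanogBiD at D8) are in a gene table with totals only. Per the methods, the cells of the time course went into iCD3, a reprogramming medium, at D0. They were switched to N2B27 with 2iL after D7 or at a set day, so medium changed along with the day. By the p numbers in their column headers, which look like passages, the iPSC1 libraries were taken later than the iPSC2 libraries, and mES later than both. An effect of passage cannot be told apart from one of line, or from the difference between mES and iPSC. Libraries 1 and 1-2 of NanogWT iPSC1 share a number in their titles, and nothing states whether the libraries of a line are separate cultures, so the p-values measure the spread between these libraries, which may be partly technical.

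A gene can give different messenger RNAs by starting at another promoter, by including or skipping a cassette exon, or by ending at another site. Such switches can change the protein without a change in the amount of RNA. Fibroblasts and pluripotent cells are known to differ in their splicing regulators, among them the Mbnl proteins, which are abundant in differentiated cells and act on alternative exons. Transcript values from short reads are estimates: fragments that fit several transcripts of a gene are divided among them by a model, and an error in that division moves FPKM from one transcript to another at no change in the gene total.

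The labels were checked on marker genes. The 11 pluripotency markers (Pou5f1, Nanog, Sox2 and others) summed to 12.2 to 13.3 FPKM in MEF, to 3280 to 5961 in 11 of the iPSC libraries and to 3904 in mES. The 13 fibroblast markers (Col1a1, Thy1, Postn and others) summed to 8368 to 8637 FPKM in MEF, to 3.17 to 536 in those 11 iPSC libraries and to 11.3 in mES. Library 9 of NanogBiD iPSC1 stood apart, with 2414 FPKM of pluripotency and 1674 of fibroblast markers. Endothelial, macrophage and keratinocyte markers summed to at most 51.8 FPKM in any library. Summed FPKM per library ran from 354804 to 435908 over the transcript table, and its sequencing depth is unknown. Fewer cells of a type and less RNA per cell cannot be told apart in such bulk libraries. Of the 200 members, 186 were also among the 200 when library 9 was left out.

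Exon structures of the switches were taken from GENCODE release M21 on GRCm38, through transcript IDs. Both transcripts were matched in 56 members, 7 pairs had a single GENCODE structure, and 49 pairs were compared. The following exons carry the clearest switches and are shown for that reason. Each is coding, is a multiple of 3 bases long, is the only cassette exon that sets its pair apart, and had inclusion values in MEF and iPSC libraries that did not overlap. Capitals mark the exon and lower-case letters the 12 coding bases on either side in the transcript, 5′ to 3′ on the strand of the gene.

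4 exons are printed from the falling transcript and were at high inclusion in MEF: the 6-base exon of Nsfl1c, which encodes the p97 cofactor p47, and exons of Palm (paralemmin, a lipid-anchored membrane protein), Slain2 (a microtubule plus-end protein) and Plod2 (a collagen lysyl hydroxylase).
Nsfl1c, chr2:151502455-151502460, plus strand: ggagggacagagGAGCAGgttttatgctgg
Palm, chr10:79816792-79816923, plus strand: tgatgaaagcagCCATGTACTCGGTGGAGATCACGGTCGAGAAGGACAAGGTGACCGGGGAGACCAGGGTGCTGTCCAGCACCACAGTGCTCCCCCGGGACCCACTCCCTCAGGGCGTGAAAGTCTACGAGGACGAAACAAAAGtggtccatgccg
Slain2, chr5:72965804-72965881, plus strand: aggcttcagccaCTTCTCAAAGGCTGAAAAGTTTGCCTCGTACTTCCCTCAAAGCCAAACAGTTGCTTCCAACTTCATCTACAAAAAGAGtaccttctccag
Plod2, chr9:92601985-92602047, plus strand: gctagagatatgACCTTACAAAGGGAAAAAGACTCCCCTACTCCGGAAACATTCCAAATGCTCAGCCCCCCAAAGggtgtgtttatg

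2 further exons of falling transcripts are in Map2k7 (MKK7, an activating kinase of JNK) and Atg16l1 (part of the complex that lipidates LC3).
Map2k7, chr8:4240688-4240735, plus strand: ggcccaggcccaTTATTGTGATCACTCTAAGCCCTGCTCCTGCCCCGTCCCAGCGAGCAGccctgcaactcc
Atg16l1, chr1:87774813-87774869, plus strand: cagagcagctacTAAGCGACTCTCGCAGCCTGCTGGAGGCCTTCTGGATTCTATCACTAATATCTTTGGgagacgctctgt

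2 exons are printed from the rising transcript and were at high inclusion in iPSC, in Add3 (γ-adducin, which joins spectrin to actin) and Map3k7 (the kinase TAK1).
Add3, chr19:53244310-53244405, plus strand: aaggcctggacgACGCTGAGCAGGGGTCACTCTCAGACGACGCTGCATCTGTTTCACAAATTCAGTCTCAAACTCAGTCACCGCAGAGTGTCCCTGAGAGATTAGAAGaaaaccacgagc
Map3k7, chr4:31994874-31994954, plus strand: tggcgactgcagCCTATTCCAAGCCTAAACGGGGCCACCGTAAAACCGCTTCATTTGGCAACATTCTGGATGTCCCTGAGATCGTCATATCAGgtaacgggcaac

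Inclusion of each exon was computed per library, as the share of the gene's FPKM in matched transcripts that contain it. The exon of Nsfl1c was at 100% in both MEF libraries, at a lowest of 0%, a median of 0.0135% and a highest of 19.8% over the 12 iPSC libraries, and at 0% in mES. Inclusion of the Palm exon was 87.1% and 78.1% in MEF, ran from 0% over a median of 4.63% to 47.4% in iPSC, and was 3.31% in mES. The exon of Slain2 stood at 81.9% and 81.0% in MEF, at 5.03%, 21.9% and 40.6% (lowest, median, highest) in iPSC, and at 15% in mES. In all of these the lowest MEF library lay above the highest iPSC library.

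Plod2 was the most variable of the printed exons, with 100% and 81.5% in MEF, 0.343%, 27.9% and 70.7% in iPSC and 0.296% in mES. Its highest iPSC value, like that of Palm, belonged to library 9, the one with 1674 FPKM of fibroblast markers, whose part in these values was not tested. For Map2k7 the MEF libraries were at 69.2% and 64.3%, the iPSC at 0.325%, 26.3% and 62.4%, and mES at 14.4%. Atg16l1 inclusion was 66.7% and 55.4% in MEF, 0.775%, 19.4% and 41.2% in iPSC and 10.3% in mES. The gap between the groups was narrowest for Map2k7, where it was under 2 points.

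The exons of the rising transcripts ran the other way. Inclusion of the Add3 exon was 1.82% and 21.3% in MEF, 63.7%, 88.3% and 100% in iPSC and 94.1% in mES. The Map3k7 exon was at 9.37% and 15.1% in MEF, 45.3%, 80.2% and 100% in iPSC and 97.3% in mES, and its lowest iPSC value was again that of library 9. mES lay within the iPSC range for both of these exons, whereas for Plod2 it lay just below the lowest iPSC library.

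**Figure D1:**
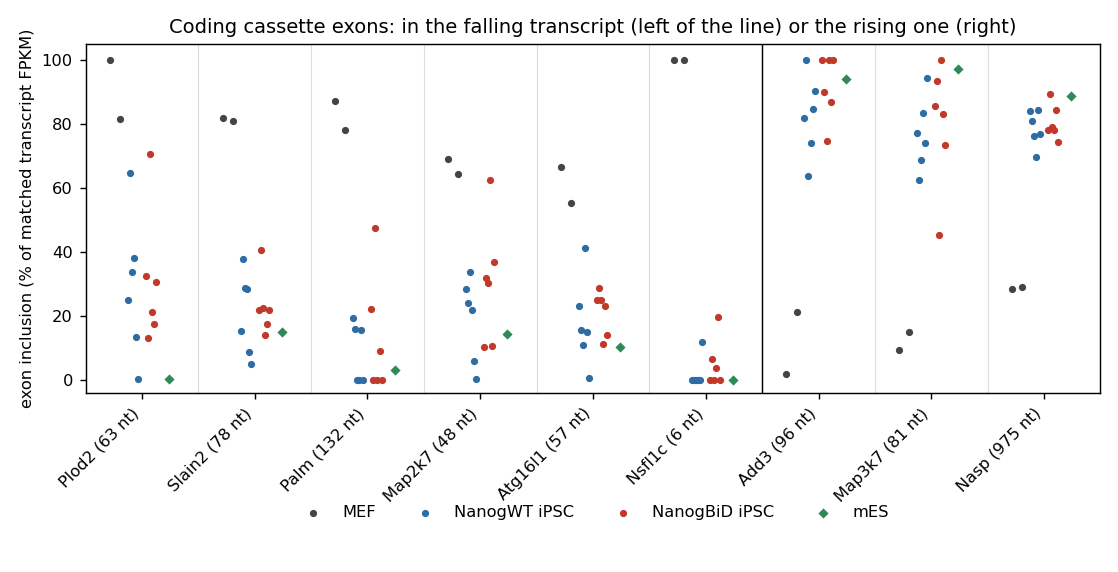
Inclusion of 9 coding cassette exons (% of the matched transcript FPKM of the gene, vertical axis) in each MEF, NanogWT iPSC, NanogBiD iPSC and mES library; every point is 1 library, and the line separates exons of the falling transcript from exons of the rising one. MEF and iPSC points do not overlap for any of the 9, while within the iPSC the spread is wide, from 0.343% to 70.7% for Plod2. The exons were chosen after their values were seen, those with printed sequences for this lack of overlap, so nothing is read from it.

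The values of NanogBiD and NanogWT iPSC overlapped at each of these exons. Add3 inclusion was 91.9% ± 10.2 (SD, n = 6) in NanogBiD and 82.5% ± 12.6 (n = 6) in NanogWT iPSC, and Plod2 inclusion was 31.1% ± 20.8 and 29.2% ± 22.1. Map2k7 stood at 30.5% ± 19.2 and 19.1% ± 13.1. Each of these differences was smaller than the SD of either group, and the test of the combinations over all transcripts is given further on.

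The other cassette exons held longer stretches of protein or shifted the reading frame. In all, 24 of the 49 pairs differed by at least 1 cassette exon, 13 with exons only in the falling and 11 only in the rising transcript. These pairs had 26 such exons, of which 22 were coding, 20 of those a multiple of 3 bases long, with a median length of 87 bases. Nasp, a chaperone of histones, had a 975-base exon that lengthens its coding sequence from 1344 to 2319 bases. Its inclusion was 28.5% and 29.1% in MEF, 69.7%, 78.7% and 89.3% in iPSC and 88.8% in mES, and the groups were more than 40 points apart. The summed FPKM of Nasp was 25.0 in MEF and 150.2 in iPSC (means), so that the total differed as well as the exon.

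Itga6, the α6 chain of laminin-binding integrins, had a 130-base exon near its 3′ end that shifts the frame of the cytoplasmic tail. It was at 86.3% and 78.9% in MEF, 0%, 4.00% and 32.2% in iPSC and 0% in mES. Scarb1, the receptor for high-density lipoprotein, had a 129-base exon at 90.6% and 87.9% in MEF, 1.99%, 19.3% and 47.5% in iPSC and 3.73% in mES. The rising transcript of Wnk1, a kinase that controls ion transport, had additional exons of 285 and 462 bases, the former at 1.2% and 24.4% in MEF, 63.6%, 73.0% and 89.6% in iPSC and 67.4% in mES. Coding sequence was longer in the rising transcript of 21 pairs, shorter in 17 and equal in 11.

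22 of the 49 pairs started more than 500 bases apart. The rising transcript started upstream in 15 and downstream in 7. Kdm2b, a subunit of a variant Polycomb complex, switched between starts 88744 bases apart, from a falling transcript with 2328 coding bases, the short form known to lack the demethylase domain, to a rising one with 3927. Its falling transcript had a usage of 87.0% and 87.5% in MEF, 17.8%, 34.2% and 49.9% in iPSC and 48.0% in mES. The rising one was at 0% and 11.9% in MEF, 35.5%, 59.0% and 75.2% in iPSC and 48.9% in mES. Arap1, an activator of Arf GTPase hydrolysis, switched between starts 46301 bases apart, with 2181 coding bases in the falling and 4323 in the rising transcript. Usage of its falling transcript was 78.8% and 53.9% in MEF, 0%, 1.10% and 15.8% in iPSC and 5.33% in mES. The rising transcript of Arap1 stood at 3.56% and 4.24% in MEF, at 0%, 82.6% and 93.7% in iPSC and at 78.6% in mES, so that at least 1 iPSC library lacked it.

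The coding sequence did not always differ with the start. Pls3 (plastin 3, an actin-bundling protein) had starts 32119 bases apart and 1890 coding bases in both transcripts. Usage of its rising transcript was 32.2% and 26.6% in MEF, 59.2%, 93.4% and 100% in iPSC and 91.2% in mES. In Lima1, an actin-binding protein, the rising start lay 55313 bases upstream and the coding sequence went from 1779 to 2259 bases. The transcript of Lima1 that changed most was at 93.8% and 78.8% in MEF, 3.10%, 14.5% and 49.9% in iPSC and 0.819% in mES. Other long shifts were in Eps15, an endocytic adaptor, with the rising start 62791 bases upstream and 1749 coding bases in the falling and 2691 in the rising transcript, and in Rbpj, the DNA-binding factor of Notch signalling, with 34637 bases and 1461 and 1455 coding bases.

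Windows before the starts were compared in the density of the dinucleotide CG, the substrate of DNA methylation. RefSeq promoter windows (GRCm38.p6) were matched to the starts within 50 bases, and the number of CG was divided by that which the base content alone would give (observed over expected). The motif searched was CG, which reads the same on both strands. Of 10 pairs with both windows matched, the ratio was higher at the rising start in 3 and lower in 7. Over all 32851 windows of the same length, 92.1% held at least 1 CG and the median was 6 CG and a ratio of 0.373.

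The pair with the largest difference in each direction is printed, chosen after its values were seen, as the 250 bases before the start with every CG in capitals. These are Arap1, with the higher ratio at the rising start, and Atp9a, a membrane ATPase of the P4 family, with the lower. In Atp9a the rising transcript started 7461 bases downstream.
Arap1 falling start, chr7:101394138-101394387, plus strand: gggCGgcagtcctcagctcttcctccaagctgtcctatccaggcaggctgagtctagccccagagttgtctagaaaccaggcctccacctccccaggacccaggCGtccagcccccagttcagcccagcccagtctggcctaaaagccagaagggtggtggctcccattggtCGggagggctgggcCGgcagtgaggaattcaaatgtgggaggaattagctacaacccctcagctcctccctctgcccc
Arap1 rising start, chr7:101347819-101348068, plus strand: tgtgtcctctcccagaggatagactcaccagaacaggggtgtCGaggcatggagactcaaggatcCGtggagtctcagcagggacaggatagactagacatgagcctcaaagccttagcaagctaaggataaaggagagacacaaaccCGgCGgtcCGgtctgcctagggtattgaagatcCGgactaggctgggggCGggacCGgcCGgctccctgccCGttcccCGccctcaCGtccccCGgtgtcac
Atp9a falling start, chr2:168741801-168742050, minus strand: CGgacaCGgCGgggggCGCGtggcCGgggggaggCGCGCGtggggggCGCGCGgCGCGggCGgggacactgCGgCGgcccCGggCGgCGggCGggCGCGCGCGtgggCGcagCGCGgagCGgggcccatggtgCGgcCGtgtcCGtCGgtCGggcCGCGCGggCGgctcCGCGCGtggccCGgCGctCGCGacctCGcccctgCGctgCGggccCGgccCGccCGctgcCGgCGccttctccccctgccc
Atp9a rising start, chr2:168734340-168734589, minus strand: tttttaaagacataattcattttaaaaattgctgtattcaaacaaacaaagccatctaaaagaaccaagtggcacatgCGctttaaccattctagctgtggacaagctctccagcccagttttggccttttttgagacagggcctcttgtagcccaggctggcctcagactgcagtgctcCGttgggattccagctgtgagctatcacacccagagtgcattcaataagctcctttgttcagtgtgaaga

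The Arap1 windows held 4 CG (ratio 0.167) at the falling and 13 (0.571) at the rising start. Those of Atp9a held 53 CG (1.11) at the falling and 2 (0.163) at the rising start. The falling transcript of Atp9a was at 100% in both MEF libraries, at 4.23%, 39.2% and 74.7% in iPSC and at 44.1% in mES. In Kdm2b both windows were dense, with 38 CG (0.958) and 27 (1.00). A count of CG in a window is a description, and no methylation was measured here.

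**Figure D2:**
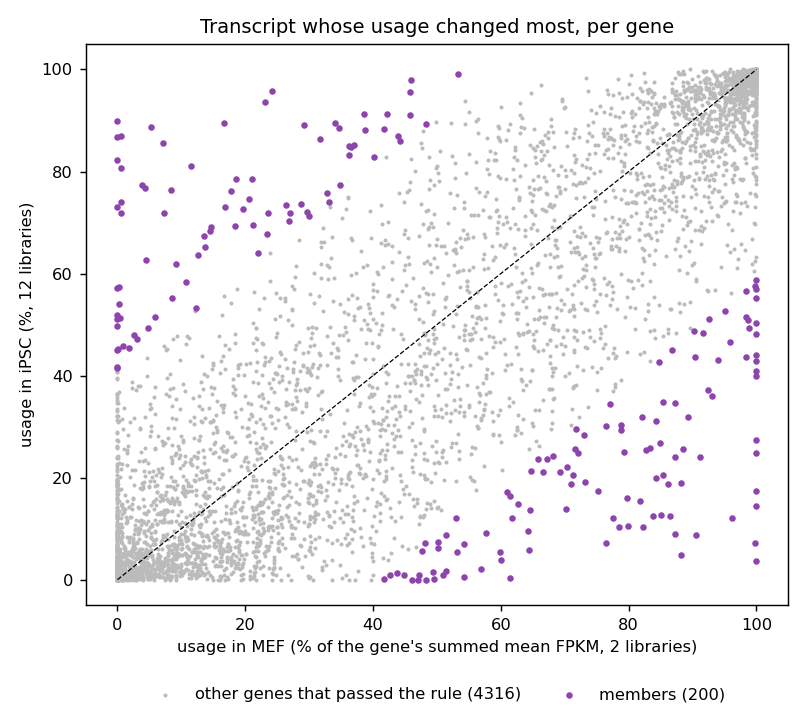
Usage of the transcript that changed most, in MEF (horizontal axis, % of the gene's summed mean FPKM, 2 libraries) and in iPSC (vertical axis, %, 12 libraries), for the 200 members and the 4316 other genes that passed the rule; the dashed line marks equal usage. Members lie at least 40.8 points off the line, by the rule that chose them.

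Across the 200 members, the largest usage change ran from 96.4 points (Nsfl1c) to 40.8, with a median of 50.6, beside a median of 8.53 over all 4516 genes. It was at least 90 points in 2 members, at least 75 in 16 and at least 50 in 103. At the limit stood Dapk3 (40.87 points), Mcam (40.85) and Pknox1 (40.85) inside, and Ubtd2 (40.73), Sh3bp5l (40.72) and Znhit1 (40.71) outside, so the edge of the list is arbitrary. The transcript with the highest usage differed between MEF and iPSC in 151 members (75.5%) and in 472 of the other 4316 genes (10.9%).

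Usage of the changed transcript did not overlap between MEF and iPSC libraries in 123 members (61.5%), beside 14% of all 4516 genes. The rule used these libraries, and nothing is read from the difference. In 94 members the libraries did not overlap and the leading transcript differed as well. The 2 MEF libraries lay within 10 points of each other in 120 members but over 40 points apart in 33, where the MEF mean stands for no library. Among the iPSC, the SD over the 12 libraries had a median of 18.2 points in members and 8.37 in the other genes, and the range exceeded 90 points in 37 members.

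Members had more annotated transcripts than the other genes, with a median of 6 against 4, and up to 43. Their summed FPKM had a median of 13.4 in MEF and 16.4 in iPSC, beside 16.1 and 18.3 in the other genes. The gene total of 122 members (61.0%) was within 2-fold between MEF and iPSC, 48 were at least 2-fold higher and 30 at least 2-fold lower in iPSC. Of the other 4316 genes, 71.8% were within 2-fold, 759 higher and 457 lower. Predicted transcripts (XM or XR) made up 95 of the falling and 73 of the rising transcripts, and the remainder were curated (NM or NR).

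Of the 12 genes at the top of the ranking, some switched in every library and others in most of them. Numa1, which organises the spindle poles, had a rising transcript at 0% in both MEF libraries, at 64.7%, 93.3% and 99.8% in iPSC and at 89.7% in mES. Jade1, a scaffold of a histone acetyltransferase complex, had one at 0% in both MEF libraries, at 69.3%, 93.2% and 100% in iPSC and at 100% in mES, from a start 9123 bases upstream. Wdtc1, a substrate receptor of a CUL4 ubiquitin ligase, stood at 0% and 1.18% in MEF, at 68.6%, 87.4% and 99.2% in iPSC and at 95.1% in mES. In these 3 genes every iPSC library and mES lay far above both MEF libraries.

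In Fbxo34 and Tbc1d23 a predicted transcript led in MEF. The Fbxo34 transcript was at 75.8% and 99.3% in MEF, 0%, 2.28% and 16.8% in iPSC and 0% in mES. For Tbc1d23, which acts in vesicle tethering at the Golgi, the values were 93.3% and 87.4% in MEF, 0%, 5.34% and 36.1% in iPSC and 0% in mES. Both MEF libraries lay above every iPSC library in these genes.

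Rpl17, Tom1, Uchl3, Lars2 and Eif4e, also of the top 12, had at least 1 iPSC library on the MEF side. Rpl17, of the large ribosomal subunit, was at 100% and 99.6% in MEF and at a median of 0.217% in iPSC, but 1 iPSC library was at 100%. Tom1, an endosomal sorting protein, was at 98.5% and 93.2% in MEF, at a median of 0% in iPSC and at 100% in library 9. Uchl3, a deubiquitinating enzyme, was at 6.94% and 2.95% in MEF, at a median of 96.1% in iPSC and at 0% in 1 of them. Lars2, the mitochondrial leucyl-tRNA synthetase, was at 100% in both MEF libraries and at a median of 0% in iPSC, but at 91.4% in its highest iPSC library and at 91.9% in mES. Eif4e, the cap-binding factor, had a transcript at 0% in both MEF libraries, at 6.13%, 99.9% and 100% in iPSC and at 0% in mES. The genome holds near-identical copies of Rpl17, Rpl7a, Hmgb1 and Eif4e, among which fragments can be split, and the values of these genes are uncertain.

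**Figure D3:**
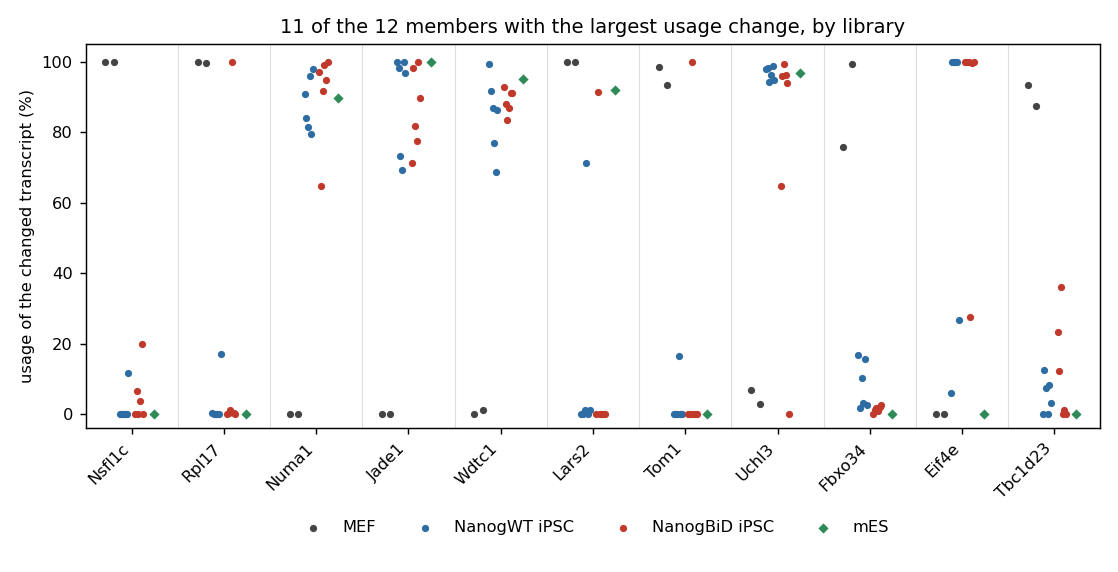
Usage of the changed transcript (%, vertical axis) in each library for 11 of the 12 members with the largest usage change; every point is 1 MEF, NanogWT iPSC, NanogBiD iPSC or mES library. Numa1, Jade1 and Wdtc1 separate in all libraries, while Rpl17, Lars2, Tom1 and Uchl3 each have at least 1 iPSC library at the MEF level.

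The most abundant members whose leading transcript differed include Nsfl1c, Rpl17 and Lars2, given above, and others with a partial difference. Eif4g1, the scaffold of cap-dependent initiation, was at 165 FPKM in MEF and 186 in iPSC. Its changed transcript was at 25.4% and 13.4% in MEF, 23.9%, 87.6% and 93.1% in iPSC and 81.4% in mES, and the lowest iPSC library fell between the MEF libraries. Nop56, a core protein of C/D small nucleolar ribonucleoproteins, stood at 86.2% and 79.7% in MEF, 2.70%, 16.1% and 65.3% in iPSC and 17.6% in mES. Supt5, a transcription elongation factor, was at 24.6% and 0% in MEF, 27.7%, 99.9% and 100% in iPSC and 100% in mES. Sptbn1, a β-spectrin, was at 1.75% and 10.4% in MEF, 29.3%, 52.7% and 70.3% in iPSC and 70.4% in mES.

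Other abundant members rested on MEF libraries that disagreed. Capns1, the small subunit of calpains, was at 95.8% and 0% in the 2 MEF libraries, 0.221%, 4.52% and 17.0% in iPSC and 10.3% in mES, and without MEF 1 its difference turned from -47.8 to 5.35 points. Uck2, a uridine-cytidine kinase, was at 8.26% and 68.3% in MEF and at 2.38%, 6.14% and 15.5% in iPSC. Its difference was -0.883 points without MEF 2 and -61.0 without MEF 1. Sept11, a septin, was at 21.7% and 49.8% in MEF and at 40.3%, 95.4% and 99.4% in iPSC. Among curated transcripts alone, its difference was 1.64 points.

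Gene groups were counted among the genes that passed the level filter, of which 4.43% are members. Of 55 splicing regulators, 3 are members (5.45%), Ddx17, Mbnl2 and Tra2b, and the median usage change of the 55 was 17.1 points beside 8.53 over all genes. The group of actin cytoskeleton and adhesion genes held 6 members of 52 (11.5%), with a median change of 14.9 points. Chromatin and transcription regulators held 3 of 50 (6.00%), with a median of 15.3 points. No member was among 26 metabolic enzymes, whose median change was 6.2 points, and 4 were among 61 genes of translation (6.56%), with a median of 6.16 points. These are counts with no test, and nothing particular to a group is read from them.

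The splicing regulators among the members had moderate differences. Tra2b, which binds exonic enhancers, had a transcript at 24.9% and 32.9% in MEF, 43.3%, 79.6% and 84.8% in iPSC and 79.7% in mES, and its summed FPKM was 50.8 in MEF and 127 in iPSC. Ddx17, an RNA helicase, stood at 23.5% and 23.6% in MEF, 54.3%, 70.7% and 83.0% in iPSC and 51.6% in mES. The difference of Ddx17 was 48.3 points over all its transcripts but 14 among curated transcripts alone. Mbnl2 was at 18.6% and 0% in MEF, 25.4%, 55.2% and 92.1% in iPSC and 58.8% in mES. Its summed FPKM was 60.2 in MEF but 6.13 in iPSC and 3.72 in mES, so the usage in iPSC rests on a low total.

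The 6 members in the list of actin cytoskeleton and adhesion genes were Add3, Itga6, Macf1, Dst, Zyx and Enah. Zyx (zyxin, of focal adhesions) had a transcript at 20% and 10.4% in MEF, 40.5%, 89.6% and 100% in iPSC and 99.5% in mES, at a summed FPKM of 185 in MEF and 11.1 in iPSC. Dst (dystonin, a linker of the cytoskeleton) was at 71.8% and 51.3% in MEF, 0%, 2.38% and 18.2% in iPSC and 24% in mES. Macf1, its relative that crosslinks microtubules and actin, was at 0.709% and 0.479% in MEF and at 4.68%, 82.4% and 89.1% in iPSC, but at 3.80% in mES. Enah, which promotes actin filament growth, was at 0% and 40.5% in MEF, 31.5%, 70.7% and 85.5% in iPSC and 28.3% in mES. Its difference was 71.3 points without MEF 2 and 25.7 with the iPSC2 libraries alone, beside 41.4 with all. mES lay within the iPSC range for Zyx, and on the MEF side of it for Dst, Macf1 and Enah.

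Among the chromatin and transcription regulators, Mta1 (a subunit of the NuRD complex) was at 0% and 97.0% in MEF and at most 0.739% in iPSC, a difference that rests on a single MEF library. Tcf12, a basic helix-loop-helix factor, was at 0.477% and 5.18% in MEF, 7.29%, 55.4% and 87.9% in iPSC and 21.9% in mES. Kdm2b, the other one, is described above with its starts.

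mES was not used by the rule and served as a check. Of the 199 members with a value in mES (Tnc had none), 164 had a usage of the changed transcript nearer the iPSC than the MEF mean (2585 of 4310 in the other genes), and 163 (81.9%) lay within the range of the 12 iPSC libraries. The latter share was 83.1% (3582 of 4310) in the other genes. In 37 members the iPSC range exceeded 90 points, and mES could hardly fall outside it there. Of the 36 members outside the range, 21 lay on the MEF side and 15 on the far side. The median distance of mES to the iPSC mean was 12.8 points over the members, beside 9.63 to 13.2 for each iPSC library against the mean of the others, and 54.6 and 50.4 for the MEF libraries. In the other genes the median distance was 5.45 points for mES and 4.53 to 5.14 for the iPSC libraries, so that mES lay within the span of the iPSC in members and beyond it in the others. Library 9 was nearer the iPSC than the MEF mean in 163 of 200 members (81.5%), the lowest of the 12 iPSC libraries, where the others had 173 to 182.

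The members with mES farthest beyond the iPSC range on the MEF side were Map4k5, Zfp865, Ap1s2, Mier3, E2f3 and Wdfy3. This ranks the gap from mES to the nearest iPSC library. Lars2, Eif4e and Macf1, given above with mES near the MEF values, are therefore not among them. Zfp865, a zinc finger gene, was at 85.9% and 87.1% in MEF, 0%, 0.633% and 47.0% in iPSC and 97.8% in mES. Ap1s2, of the clathrin adaptor AP-1, was at 34.5% and 38.2% in MEF, 68.7%, 84.9% and 90.7% in iPSC and 42.0% in mES. E2f3, a cell cycle transcription factor, was at 18.4% and 77.5% in MEF, 80.8%, 92.1% and 99.3% in iPSC and 62.6% in mES, and its difference was 14 points without MEF 1 and 72.6 without MEF 2. Wdfy3, an autophagy adaptor, was at 13.9% and 13.3% in MEF, 29.2%, 77.8% and 99.5% in iPSC and 11.1% in mES. Mier3 was at 0% and 94.9% in MEF and at 46.6% in mES, and without MEF 2 its difference turned to 5.66 points.

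Transcript usage was then tested where the rule gave no direction, with limma on the log2 ratio of a transcript to the other transcripts of its gene, over all transcripts of the 4516 genes. A transcript counted as different when limma's p, adjusted by Benjamini-Hochberg over all transcripts, was under 0.05 and usage differed by at least 10 percentage points, and a gene when any of its transcripts did. Between NanogBiD and NanogWT iPSC, no member was called, beside 0% of all 4516 genes, over 13654 transcripts with the line as covariate. The smallest adjusted p of a member was 0.901 in limma. At an unadjusted p under 0.05 and 10 points, 30 members (15%) and 278 of all genes (6.16%) passed. The members vary more among the iPSC libraries than the other genes, by the values given above, and these counts are a description. A difference between the combinations was thus not detected in any member, which does not show that they use the same transcripts.

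Between the lines iPSC1 and iPSC2, 1 member was called, Vps52, beside 0.0443% of all genes (2 of 4516). Vps52 encodes a subunit of the GARP complex, which tethers vesicles at the trans-Golgi network. Its transcript NM_172620.3 was at 0% in all 7 iPSC1 libraries of both combinations, and at 83.4% to 94.5% in the 5 iPSC2 libraries (88.6% ± 4.02, SD, n = 5). It was at 93.7% and 94.3% in MEF and at 96.4% in mES. The usage difference was -88.2 points for iPSC1 against iPSC2 (log2 ratio difference -5.60, SE 0.27, limma adjusted p = 1.1e-06), and every library showed its direction. Vps52 owes its place among the members to iPSC1: its usage change from MEF was -94.0 points with iPSC1 libraries alone and -5.22 with iPSC2 alone. At an unadjusted p under 0.05 and 10 points, 33 members (16.5%) and 376 of all genes (8.33%) passed.

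Between mES and the iPSC, 11 members (5.5%) were called in limma, beside 1.35% of all genes (61 of 4516). With a single mES library, whose spread is assumed to be that of the iPSC, the p-values rest on the iPSC libraries alone and set this library, not mES in general, against them. The same iPSC libraries chose the members, so the shares are not compared. In Eif4e, NM_007917.4 was at 99.5% in mES and 0% in all 12 iPSC libraries, and at 0% and 76.9% in MEF (log2 ratio difference 9.32). The transcripts called in Eif4e, Gapvd1 and Dot1l were at 0% in every iPSC library and were tested through mES alone. The spread of their ratio among the iPSC is thus one of the gene total, not of usage. The transcripts called in Eml4, Enah, Wdfy3 and Kmt2d, and NM_201519.2 of Map4k5, also passed the 5% filter through mES alone. Such transcripts entered the test by being high in mES, so their calls are a description of this library. In Map4k5, a kinase of the Ste20 group, NM_201519.2 was at 100% in mES, at most 9.81% in iPSC, and 100% and 0% in MEF. Wdfy3 had a predicted transcript at 86.0% in mES and at most 12.2% in iPSC and 0% in both MEF libraries. In Wdfy3 the mES library thus used a transcript that neither MEF nor iPSC used much.

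The same held for Kmt2d, a histone H3 lysine 4 methyltransferase, at 82.5% in mES, at most 23.4% in iPSC and 5.61% and 0% in MEF. It also held for Dcaf11, a CUL4 receptor, at 78.8% in mES, at most 16% in iPSC and 0% in both MEF libraries. Rab11fip5, a Rab11 effector, had the opposite order, with NM_177466.4 at 58.4% and 55.5% in MEF, 10.2% to 24.8% in iPSC and 0% in mES (-16.6 points, adjusted p = 0.0066). Wnk1 NM_001185021.1 was at 3.36% in mES and at 17.8% to 31.4% in iPSC (-22.0 points, adjusted p = 0.00613). Eml4, Enah, Gapvd1 and Dot1l were called with differences between 10.3 and 26.7 points. Dot1l and Gapvd1 lost their calls without library 9 (adjusted p = 0.0571 and 0.0546), while the other 9 members kept theirs. At an unadjusted p under 0.05 and 10 points, 51 members (25.5%) and 565 of all genes (12.5%) passed.

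**Figure D4:**
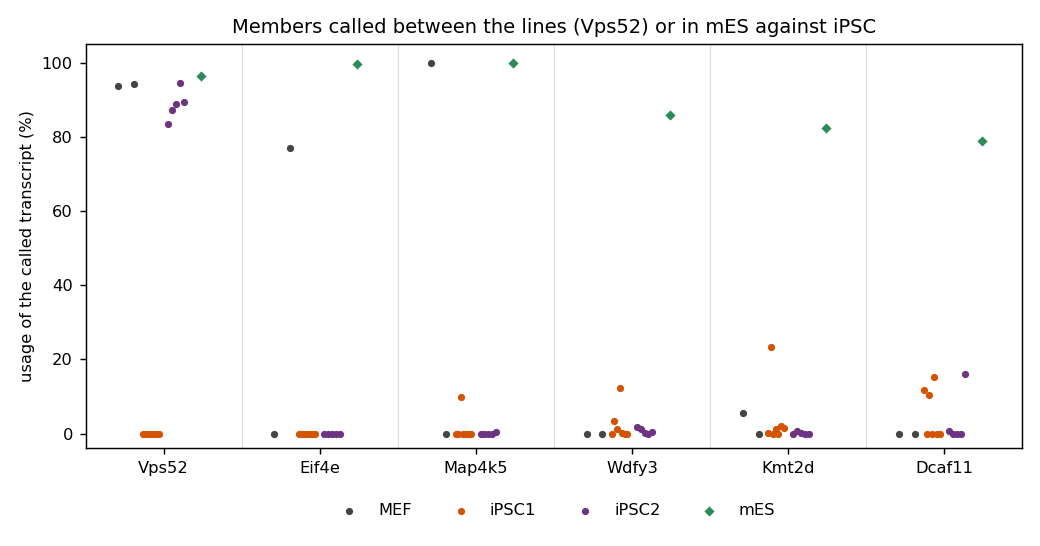
Usage of the called transcript (%, vertical axis) in MEF, iPSC1, iPSC2 and mES libraries for Vps52, called between the lines, and for 5 of the members called between mES and iPSC; every point is 1 library. Vps52 is at 0% in the iPSC1 and at 83.4% to 94.5% in the iPSC2 libraries, and the other transcripts are at 78.8% or more in mES and at most 23.4% in iPSC.

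The time-course libraries, which the rule did not use, hold totals per gene and no transcripts, so they show whether members changed in amount, not whether they switched. All differences are in log2(FPKM + 1), which understates the change of low genes. From D0 to D12 with NanogBiD, 68 members (34.0%) were called at an adjusted p under 0.05 and a 2-fold difference, beside 34.7% of the 16842 genes tested. 49 were higher (24.5%, beside 24.6% of all genes) and 19 lower (9.50%, beside 10.2%). The median difference was 0.38 in members and 0.34 in all genes. Among the 4516 genes with the level and transcript number that members must have, 28.8% were called, 20% higher and 8.77% lower.

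The members that fell most were Tnc (tenascin C, a matrix glycoprotein; -3.98), Mbnl2, Zyx, Fndc3b and Pls3. Mbnl2 went from 115 and 138 FPKM at D0 to 7.66 and 8.34 at D12 with NanogBiD (-3.82, SE 0.23, limma adjusted p = 6.34e-11). Zyx went from 223 and 210 FPKM to 13.7 and 18.1 (-3.69, SE 0.22, adjusted p = 5.06e-11), and Pls3 from 162 and 196 to 26.8 and 23.2 (-2.79, SE 0.20, adjusted p = 4.31e-10). Fndc3b, a fibronectin type III protein, fell as well (-3.06, SE 0.22, adjusted p = 4.77e-10).

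Those that rose included Nasp, from 13 and 8.34 FPKM at D0 to 121 and 104 at D12 (3.31, SE 0.31, limma adjusted p = 2.63e-08). Rpap1, a partner of RNA polymerase II, went from 5.03 and 4.74 to 24.6 and 22.1 FPKM (2.05, SE 0.15, adjusted p = 7.38e-10). Ash2l, of the H3 lysine 4 methyltransferase complexes, went from 13.1 and 10.9 to 62.4 and 50.03 FPKM (2.13, SE 0.16, adjusted p = 1.04e-09). Kdm2b (1.29, adjusted p = 3.12e-08) and Itga6 (1.17, adjusted p = 6.17e-06) rose too, while Tra2b stayed under the 2-fold limit (0.42). In each gene named here the 2 libraries of D12 lay on the same side of both D0 libraries.

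At D7, 17 members (8.50%) differed between NanogBiD and NanogWT, beside 10.4% of all genes. 14 were higher with NanogBiD (7.00%, beside 5.79%) and 3 lower (1.5%, beside 4.65%). Among the 4516 genes that passed the rule's level filter, 5.93% were called, 4.69% higher and 1.24% lower, so the background taken decides whether the members' share lies above or below it. Nasp was at 67.6 and 54.1 FPKM with NanogBiD and at 10.2 and 12.3 with NanogWT (2.34, SE 0.31, limma adjusted p = 1.47e-05). Eml4, a microtubule-binding protein, was at 18.1 and 20.4 against 7.47 and 8.43 (1.18, SE 0.13, adjusted p = 1.97e-06). Espl1 (separase, which cuts cohesin), Cad (pyrimidine synthesis) and Enah were higher by 1.69, 1.46 and 1.04 on the log2 scale. The 3 lower members were Nfu1 (-1.42), Fndc3b (-1.29) and Mbnl2 (-1.05). In Nasp and Eml4 the libraries of the combinations did not overlap.

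**Figure D5:**
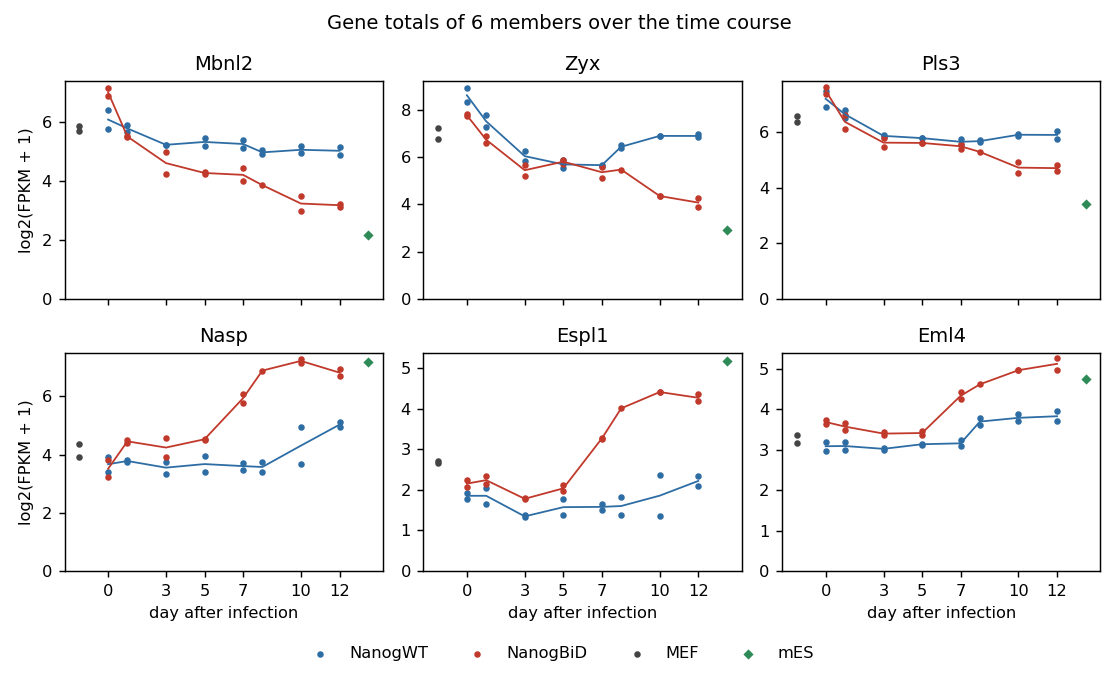
Gene totals of 6 members as log2(FPKM + 1) (vertical axis) by day after infection (horizontal axis) for NanogWT and NanogBiD, with MEF at the left and mES at the right; every point is 1 library and lines join the means. Mbnl2, Zyx and Pls3 are lower and Nasp, Espl1 and Eml4 higher at D12 than at D0 with NanogBiD.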

How the data were processed

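RNA-seq of 46 samples was deposited: 31 of the time course, 12 iPSC, 2 MEF and 1 mES, grouped by their labels. Per the methods and the submitters' processing notes, the authors trimmed reads from total RNA with Trim Galore 0.6.4, aligned them to mm10 with HISAT2 2.2.1 and computed FPKM per gene and per transcript with StringTie 2.2.1. The annotation release and the use of strand are not given in the sources used here, so overlapping and antisense genes are uncertain. FPKM hold no depth, and no count model was applied.

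The members and gene lists were chosen with earlier results of these data known. So was D7, which an earlier analysis of these data gave as the last day with libraries of like depth; depth was not computed here. Transcript usage was computed per library from the deposited FPKM. Usage was tested with limma 3.58.1 in R 4.3.3 (lmFit and eBayes with trend, two-sided, Benjamini-Hochberg) on log2((transcript FPKM + 1)/(FPKM of the gene's other transcripts + 1)), over transcripts with at least 5% usage in at least 2 libraries compared. The combinations and lines were fitted together, and mES separately against the iPSC. In the mES fit, a transcript was also tested when it reached 5% usage in the mES library alone. Gene totals were tested with limma on log2(FPKM + 1) of the 16842 genes that reached 1 FPKM in 2 or more libraries of the time course, with 1 mean for each of 16 groups, called at an adjusted p under 0.05 and a 2-fold difference. Each fit was checked on simulated data, of which the mES fit recovered clearly the smallest share of changes. Replicate numbers are shared by the time-course groups. Deviations from the group means of same-numbered libraries of the combinations correlated at 0.39 at D7, the highest of all days, and at -0.06 at D3. Between D12 and D0 of NanogBiD the correlation was 0.02. The libraries were not taken as pairs, and a pairing at D7 alone was not tested. Genes were named by rule: the 12 largest usage changes, the 15 most abundant members with a different leading transcript, those at the limit, members of the lists, up to 6 called per test, and the 6 with mES farthest beyond the iPSC range on the MEF side. A few of the genes so named are not reported here. Exon switches and starts were named from their structures after their values were seen. Alternatives were other libraries, level limits, pseudocounts, filters, scalings and covariates. Python 3.11.15, numpy 2.4.6, pandas 2.3.3 and matplotlib 3.10.9 were used for the other steps.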

Additional observations from a re-analysis of the deposited data

Results flagged for a closer look

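In each group of 6 iPSC libraries of a combination, the highest or lowest library was compared with the others by Dixon's ratio of gap to range, for 112 sets of values, and chance alone marks about 1 in 20. Library 9 of NanogBiD iPSC1 was nearer the iPSC than the MEF mean in only 163 members, below the other 5. In the same library Tom1 usage was at 100%, Tra2b at 43.3% and Fndc3b at 35.7%, apart from the other NanogBiD libraries, and its fibroblast marker sum was 1674 FPKM; their part in these values was not tested.

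Other NanogBiD libraries stood apart in single genes, by the usage of the changed transcript. Library 1 of iPSC2 had Rpl17 at 100%, Eif4e at 27.5%, Macf1 at 14.3% and Rpap1 at 41.3%. Library 2 of iPSC2 had Nsfl1c at 19.8%, Capns1 at 17% and Hmgb1 at 16.6%. Library 3 of iPSC2 had Uchl3 at 0%, Rpl7a at 63.1%, Dapk3 at 68.3%, Mta1 at 0.289% and Map4k5 at 99.5%. In iPSC1, library 8 had Numa1 at 64.7% and Lars2 at 91.4%, and library 4 had Zfp865 at 28.2%.

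Among the NanogWT libraries, iPSC1 2 had Lars2 at 71.3%, Tom1 at 16.6% and Wdfy3 at 37.4%. Sept11 at 49.1%, Pls3 at 59.2% and Fndc3b at 23% stood apart in iPSC1 3, and Supt5 at 49.8% in iPSC1 1. Nop56 at 65.3% and Map4k5 at 90.2% did so in iPSC1 1-2. In iPSC2 6 these were Nsfl1c at 11.8%, Rpl17 at 17%, and Macf1 at 4.68%, and in iPSC2 5 Dapk3 at 0.151%. Some of these, such as Mta1 at 0.289% or Map4k5 at 99.5%, differ from the other libraries by under 1 point.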

How the results depend on the processing

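The list of members depended on the MEF libraries and on the level limit. Of the 200 members, 119 remained without MEF 1 and 125 without MEF 2, while 157 to 192 remained in each alternative that changed only the iPSC libraries (192 without NanogBiD iPSC2 3). A limit of 10 FPKM kept 108 of the 200, a limit of 1 FPKM 51 and curated transcripts alone 66, where the choice of genes or transcripts to be ranked changes by construction. Of the usage changes of named members under these alternatives, 1154 moved by less than the spread between libraries, 30 by more, and 4 changed sign. These 4 were Capns1 (5.35 points without MEF 1, -90.5 without MEF 2), Mta1 (-96.8 without MEF 1, 0.240 without MEF 2), Map4k5 (-0.887 without MEF 1, 99.1 without MEF 2) and Mier3 (-89.3 without MEF 1, 5.66 without MEF 2), in which the MEF libraries disagree. The count of 11 members between mES and iPSC was 26 when usage was tested in percentage points, and 9 to 12 with each iPSC library left out; the cause of the former was not tested. In that fit Wnk1 lost its call (adjusted p = 0.0904 in limma). Without a fold limit, 126 members were called at D12 against D0 and 54 between the combinations at D7. The counts of 68 and 17 were 64 to 72 and 15 with 1 replicate left out, and 61 to 74 and 15 to 22 in the remaining alternatives. Enah lost its D7 call (log2 0.97 after quantile normalization, 0.91 without replicate 1). With the replicate block the counts were again 68 and 17, and the block changed no other call here. The block is a single term for all days, so it does not test a pairing at D7 alone. No member was called between the combinations, and 1 between the lines, under any alternative run. FPKM hold no depth, so the limits that depth sets are unknown.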
